A study of Homo sapiens with 6 samples.

Results

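Metallothioneins, the metal sensor MTF1 and the zinc transporters of the SLC30A and SLC39A families were followed in HepG2.2.15 cells treated with a herbal decoction. The members were taken by name from the protein-coding rows of the deposited table, which gave 34 genes of 62709: 9 metallothioneins, MTF1, 10 SLC30A genes and 14 SLC39A genes. HepG2.2.15 cells come from the HepG2 hepatoma line and hold integrated hepatitis B virus DNA; their genotype is labelled WT. The 3 YQSHJD libraries came from cells kept for 3 days in medium of which 10% was diluted Yinqi Sanhuang Jiedu Decoction (YQSHJD), prepared as a freeze-dried powder. The 3 control libraries came from cells given physiological saline, which the treatment protocol calls PBS, also for 3 days and at 10% of the medium. All cells grew in medium with serum, antibiotics and G418, and the labels do not say whether libraries of a group were separate cultures, so p-values measure the spread between these libraries, which may be technical.

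Polyadenylated RNA was sequenced, with 13370372 to 15066527 reads in genes in the YQSHJD libraries and 14829994 to 15615649 in the saline libraries. Levels are FPKM, which scale reads by the deposited length of the gene and by a library total. For MT2A and MT1X that length, 914 and 1727 bases, covers the whole span of the gene. For MT1E, at 1052 bases, it is shorter than the span. Levels of different genes, and their ranks and shares, thus compare only roughly. The totals that the FPKM imply were 0.885 to 0.923 times the reads in genes with YQSHJD and 1.03 to 1.05 times with saline. For every gene, FPKM thus stand higher with YQSHJD, beside saline, than scaling by the reads in genes would give. The FPKM of a library summed to 422200 to 476100 with YQSHJD and 341900 to 360200 with saline, and the mitochondrial rRNA MT-RNR2 held 4.35% to 5.46% of the reads with YQSHJD and 1.67% to 1.70% with saline; their part in the results was not tested. All 9 hepatocyte markers were tested, with 5 higher and 0 lower (3 higher and 2 lower under TPM rescaling). They summed to 4356 to 5256 FPKM with YQSHJD and 2899 to 3165 FPKM with saline. The fibrinogen chain FGB stood at 15.1 FPKM with YQSHJD and 6.15 FPKM with saline. Albumin, ALB, stood at 2123 FPKM with YQSHJD and 940.2 FPKM with saline. The other markers were not all higher, and 4 did not pass. Of these 4, APOB and TF were higher by mean. TTR was lower by mean, at 16.3 FPKM with YQSHJD and 21.0 FPKM with saline. So was SERPINA1, at 610.8 FPKM with YQSHJD and 662.6 FPKM with saline. The fibroblast list summed to at most 0.256 FPKM in YQSHJD libraries and at most 0.567 FPKM in saline libraries, and of 5 leukocyte markers PTPRC was listed at 0 and only LYZ was tested, at 212.9 FPKM with YQSHJD and 90.5 FPKM with saline. Of 3 tested cholangiocyte markers, 2 were higher and 1 lower (0 higher and 1 lower under TPM rescaling), with SOX9 at 68.3 FPKM with YQSHJD and 137.1 FPKM with saline. Of 2 tested endothelial markers 1 was higher, PECAM1, at 1.27 FPKM with YQSHJD and 0.592 FPKM with saline, a call lost without saline 1 (limma adjusted p = 0.0616), and it was under the filter without any 1 of the YQSHJD libraries. PECAM1 reached 1 FPKM only in YQSHJD libraries, so it was tested only because it was higher there. Beside these marker counts, 23.3% of all tested genes were higher and 18.0% lower. YQSHJD 1 stood apart from its group, with a mean correlation of 0.976 to the other YQSHJD libraries against 0.984 for YQSHJD 2 and 0.981 for YQSHJD 3. Without YQSHJD 1, the counts of members called below stayed at 5 higher and 2 lower.

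Zinc is an essential cofactor that is toxic in excess, and cells hold its free concentration low. Metallothioneins are short cysteine-rich proteins that bind zinc, copper and cadmium. MTF1 is a transcription factor that is activated by zinc and binds metal response elements in the promoters of metallothioneins and of SLC30A1. SLC30A proteins move zinc out of the cytosol, across the plasma membrane or into organelles, and SLC39A proteins move zinc into the cytosol. In liver, metallothioneins are induced by zinc, cadmium, glucocorticoids and inflammation, and SLC39A14 takes up zinc, manganese and iron.

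The 2 most abundant metallothioneins, MT2A and MT1E, fell with YQSHJD, while MTF1 and 4 zinc transporters rose. Of these rises, only those of SLC39A6 and SLC30A9 passed under all 16 alternative settings. The calls of MTF1, SLC30A1 and SLC30A6 were lost under TPM rescaling. MT2A averaged 499.3 ± 26.1 FPKM with YQSHJD and 841.7 ± 49.7 FPKM with saline (SD, n = 3 each), and MT1E averaged 21.2 ± 3.34 FPKM with YQSHJD and 36.9 ± 1.91 FPKM with saline. SLC39A6, a zinc importer of the plasma membrane, averaged 27.1 ± 2.38 FPKM with YQSHJD and 12.8 ± 0.333 FPKM with saline. In these bulk libraries, fewer expressing cells and less RNA per cell cannot be told apart.

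Of the 34 members, 19 reached at least 1 FPKM in at least 3 libraries and were tested together with all other such genes by limma on log2(FPKM + 1). Of these 19, 5 were higher and 2 lower with YQSHJD at a Benjamini-Hochberg adjusted p under 0.05, which is 36.8%, against 41.4% of the 10966 genes tested. By direction, 23.3% of all tested genes were higher and 18.0% were lower. Every YQSHJD library lay on the same side of every saline library for 9 of the 19, 5 with YQSHJD higher and 4 with YQSHJD lower, which is 47.4% against 55.3% of all tested genes, 30.7% with YQSHJD higher and 24.6% with YQSHJD lower. The median log2 difference of the 19 was 0.15, beside 0.04 over all tested genes. The share of members called was thus near that of all tested genes. Of the 15 members that were not tested, 8 were listed at 0 in every library and 7 had some reads.

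**Figure D1:**
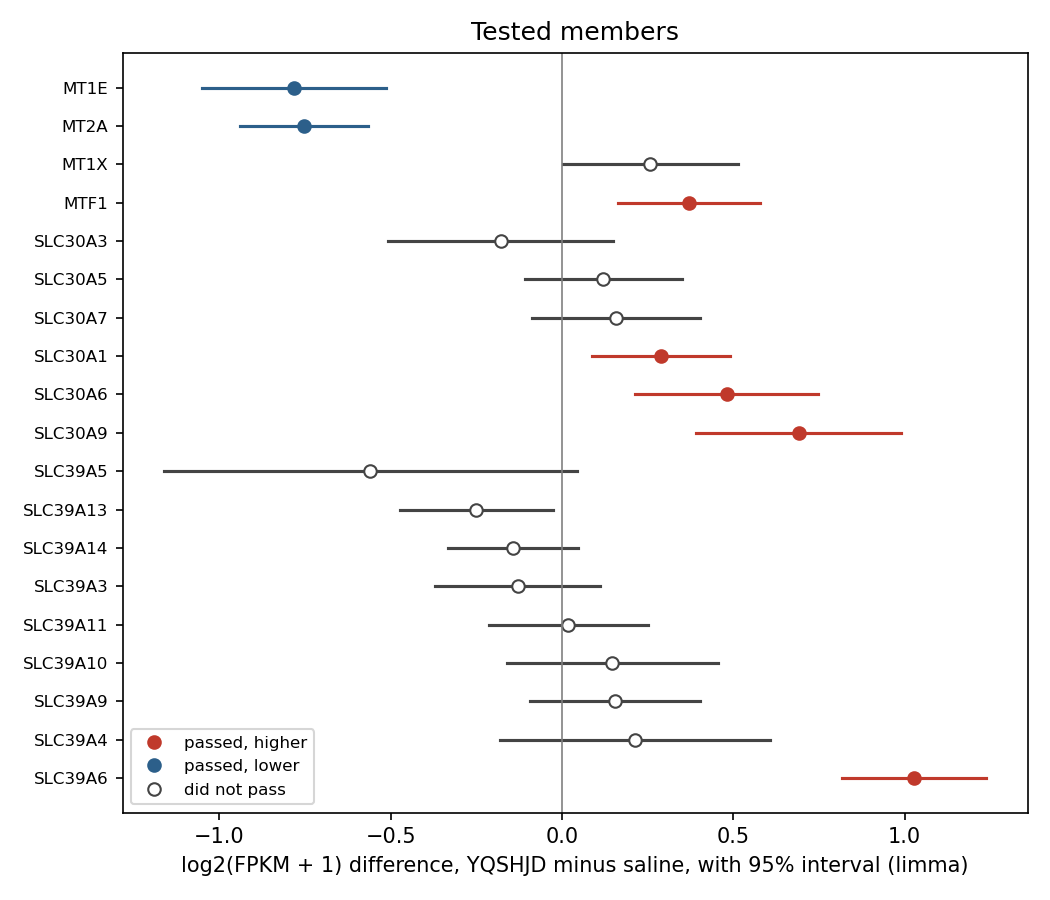
Log2(FPKM + 1) difference, YQSHJD minus saline, of the 19 tested members with 95% intervals from limma. Filled red points passed the test as higher, filled blue points passed as lower and open points did not pass; MT2A and MT1E lie left of 0 and SLC39A6 lies farthest right, at 1.03.

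The metallothionein members lie in a cluster on chromosome 16, from 56608584 to 56684196 in the deposited coordinates, for which no build is named, a span of 75.6 kb, and 1 of the 9 is on the minus strand. Levels differed widely within it. MT2A made up 94.4% to 96.0% of the summed metallothionein FPKM in the YQSHJD libraries and 95.3% to 95.6% in the saline libraries. It ranked 48 by mean FPKM among protein-coding genes with YQSHJD and 24 with saline. The summed level of the family averaged 523.8 ± 24.0 FPKM with YQSHJD and 881.5 ± 51.4 FPKM with saline.

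**Figure D2:**
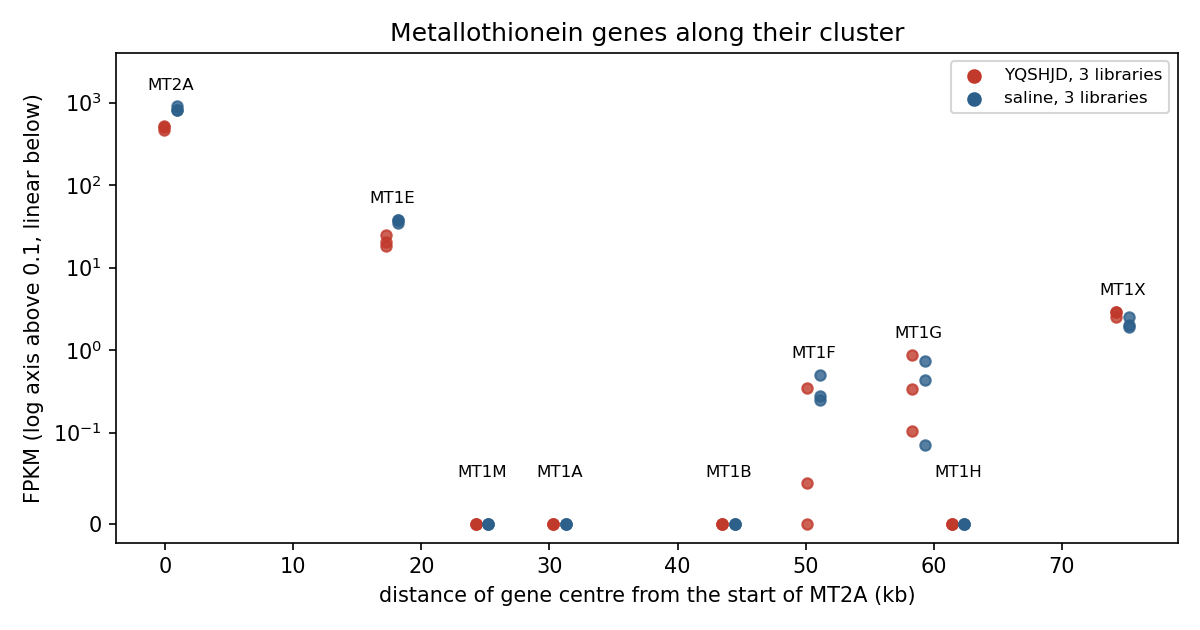
FPKM of each metallothionein gene in each library, against the distance of the gene's centre from the start of MT2A in kb. The level axis is logarithmic above 0.1 and linear below, red points are YQSHJD libraries and blue points saline libraries; MT2A and MT1E at the left end are the highest, MT1X at the right end lies near 2 to 3 FPKM and MT1M, MT1A, MT1B and MT1H lie at 0.

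MT2A (ENSG00000125148, 56608584 to 56609497, plus strand) measured 503.6, 471.3 and 522.9 FPKM in YQSHJD 1 to 3, and 817.3, 808.9 and 898.9 FPKM in saline 1 to 3. Every YQSHJD library lay below every saline library. The level was 1.69-fold lower with YQSHJD, with a log2 difference of -0.75 (standard error 0.08, limma adjusted p = 0.000262), and it rested on 5137 to 13462 reads per library. MT1E (ENSG00000169715, 56625475 to 56627112, plus strand) measured 18.4, 24.9 and 20.3 FPKM in YQSHJD 1 to 3, and 34.7, 37.9 and 38.1 FPKM in saline 1 to 3. Its groups did not overlap either, and its level was 1.74-fold lower with YQSHJD (log2 difference -0.78, standard error 0.12, limma adjusted p = 0.0013). Both falls passed the test under all 16 alternatives, with log2 differences of -1.11 to -0.61 for MT2A and -1.16 to -0.65 for MT1E.

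MT1X (ENSG00000187193, 56682470 to 56684196, plus strand), at the other end of the cluster, measured 2.51, 2.87 and 2.87 FPKM in YQSHJD 1 to 3, and 2.01, 1.88 and 2.54 FPKM in saline 1 to 3. YQSHJD 1 lay below saline 3, so the groups overlapped by a small margin, with only 50 to 72 reads per library. Its log2 difference of 0.26, with a 95% interval of 0.002 to 0.51, did not pass the test (limma adjusted p = 0.0961), and passed after GC correction at 0.40 (adjusted p = 0.0114).

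MT1G and MT1F were under the filter. MT1G had 1, 3 and 9 reads in YQSHJD 1 to 3 and 5, 1 and 9 reads in saline 1 to 3. MT1F had 0, 1 and 9 reads in YQSHJD 1 to 3 and 7, 8 and 15 reads in saline 1 to 3. At this depth no difference could be measured for either. MT1A, MT1B, MT1H and MT1M were listed at 0 in every library. The metallothionein genes resemble each other: between 0% of 50-base windows (MT1B) and 16.5% (MT1G) of a member's GENCODE transcripts were also found in another metallothionein gene, with 3.02% for MT2A, 7.1% for MT1E and 15.8% for MT1H. These shares do not bound the error of a level. MT2A had 5137 to 13462 reads per library and MT1E 249 to 657, so a small share of the MT2A reads would be a large share of those of MT1E. Whether the MT1E values hold MT2A reads was not tested. Among 12 further metallothionein rows outside the 9 members, among them MT3 and MT4, none reached the filter and 9 were listed at 0.

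Ratios within a library do not depend on how the library was scaled. MT1X stood at 13.7%, 11.5% and 14.2% of the MT1E level in YQSHJD 1 to 3, and at 5.81%, 4.97% and 6.68% in saline 1 to 3. The groups did not overlap, but 3 libraries against 3 cannot give an exact permutation p below 0.1, and the ratio did not pass (two-sided exact permutation p = 0.1, adjusted p = 0.15 over 3 ratios). The ratio of MT2A to MT1E was 27.4, 18.9 and 25.8 in YQSHJD 1 to 3, and 23.6, 21.4 and 23.6 in saline 1 to 3, with the YQSHJD values on both sides of the saline values (exact permutation p = 0.8, adjusted p = 0.8). The log2 difference of this ratio was 0.06. The 3 ratios were chosen after the values were seen.

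**Figure D3:**
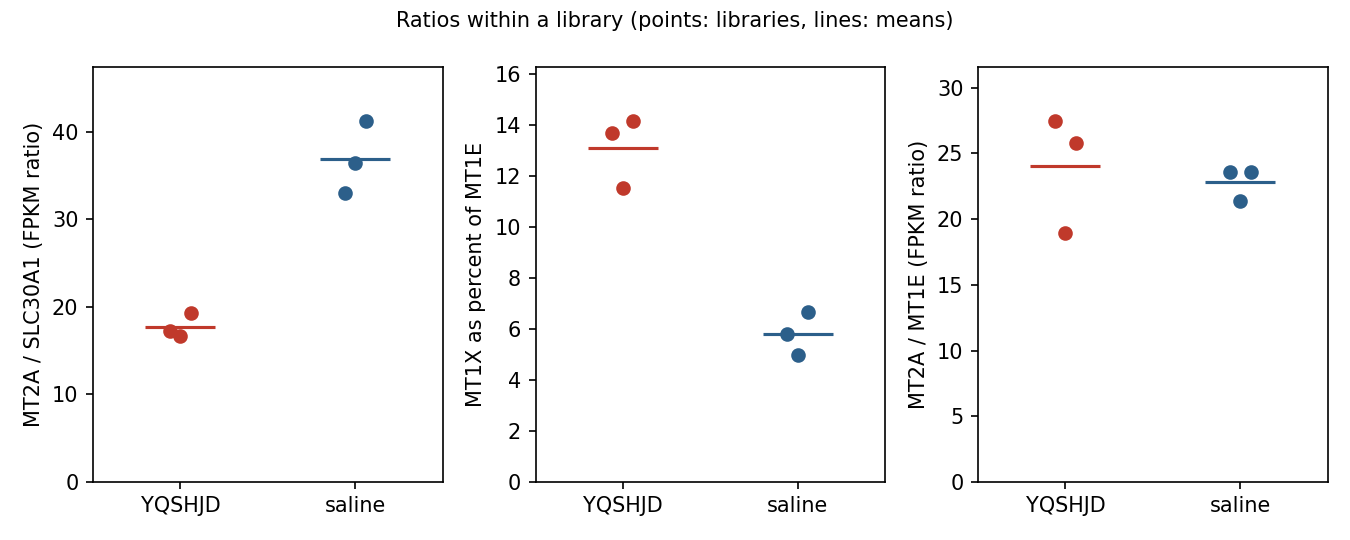
Ratios of FPKM within each library, with points for libraries and lines for group means, YQSHJD in red and saline in blue. MT2A over SLC30A1 is lower in every YQSHJD library, MT1X as a percent of MT1E is higher in every YQSHJD library, and MT2A over MT1E overlaps between the groups.

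The upstream sequences of metallothionein genes that fell, did not pass and were listed at 0 are shown because they can be compared for the core of the metal response element. They are the 250 bases before the RefSeq transcription start on GRCh38.p14, in the direction of the gene, and capitals mark matches to the core, TGCACNC or TGCGCNC on either strand. The windows are chr16:56608334-56608583 (plus strand) for MT2A, chr16:56682220-56682469 (plus strand) for MT1X, chr16:56669564-56669813 (plus strand) for MT1H and chr1:211579162-211579411 (minus strand) for SLC30A1, the transporter gene known as an MTF1 target.
MT2A: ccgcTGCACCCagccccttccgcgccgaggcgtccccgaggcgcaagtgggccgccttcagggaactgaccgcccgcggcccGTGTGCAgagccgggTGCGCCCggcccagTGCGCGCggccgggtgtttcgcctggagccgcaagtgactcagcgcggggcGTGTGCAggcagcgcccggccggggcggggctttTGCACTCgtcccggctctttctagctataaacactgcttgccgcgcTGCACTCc
MT1X: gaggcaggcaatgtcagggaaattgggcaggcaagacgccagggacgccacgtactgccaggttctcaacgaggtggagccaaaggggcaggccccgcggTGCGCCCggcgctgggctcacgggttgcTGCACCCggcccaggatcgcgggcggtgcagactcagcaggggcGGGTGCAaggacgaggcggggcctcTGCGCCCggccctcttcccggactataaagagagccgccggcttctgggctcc
MT1H: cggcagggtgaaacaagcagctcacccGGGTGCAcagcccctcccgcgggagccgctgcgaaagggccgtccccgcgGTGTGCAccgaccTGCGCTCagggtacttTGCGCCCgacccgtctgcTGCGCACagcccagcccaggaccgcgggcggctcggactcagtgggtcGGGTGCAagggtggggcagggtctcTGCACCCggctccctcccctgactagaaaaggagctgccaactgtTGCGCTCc
SLC30A1: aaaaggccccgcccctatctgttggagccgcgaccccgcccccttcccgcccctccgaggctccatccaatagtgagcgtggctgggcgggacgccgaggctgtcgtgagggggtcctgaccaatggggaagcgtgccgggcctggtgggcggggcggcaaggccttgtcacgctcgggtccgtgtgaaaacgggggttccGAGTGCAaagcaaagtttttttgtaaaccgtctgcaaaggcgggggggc

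The MT2A window held 7 matches, the MT1X window 4, the MT1H window 8 and the SLC30A1 window 1, and no match overlapped another. MT1B, also listed at 0, held 3. Of 35116 promoter windows of this length, 24.8% held at least 1 match, 1.58% at least 3 and 0.37% at least 4. Among the metallothioneins with a window, the number of matches did not order the levels, since MT1H at 0 held more than MT2A. RefSeq windows were searched for 26 of the 34 members, with none found for MT1A, MT1E, MT1F, MT1G and MT1M. Member windows on chromosome 8, where SLC39A14, SLC39A4 and SLC30A8 lie, were left out of the search. Outside the metallothioneins, the windows of MTF1, SLC30A9, SLC39A9 and SLC39A10 held 0 matches those of SLC30A6 and SLC39A6 held 1, that of SLC30A2 held 3, as many as MT1B, and SLC30A3 held 2 and 1 in its 2 windows. No transporter window that was searched held more than 3, and that of SLC39A14, the most abundant transporter, was not among them. The core of the antioxidant response element, TGACNNNGC on either strand, was in 10.9% of all windows and had 1 match each in MT2A, MT1X, MT1B and SLC30A1 and 0 in MT1H, without overlap with the metal response cores. A match is a description of letters and no evidence of binding.

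MTF1 (ENSG00000188786, chromosome 1, 37809574 to 37859592), the zinc-sensing activator, had low and tight levels: 3.096, 2.907 and 3.079 FPKM in YQSHJD 1 to 3, and 2.194, 2.156 and 1.994 FPKM in saline 1 to 3. Every YQSHJD library lay above every saline library, the opposite order to MT2A. MTF1 rose 1.43-fold (log2 difference 0.37, standard error 0.09, limma adjusted p = 0.012), and of 15 alternatives only TPM rescaling lost the call (log2 difference 0.14, adjusted p = 0.313).

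Among SLC30A genes, 3 of 6 tested members rose, against 23.3% of all tested genes, and 0 fell, against 18.0%. The median log2 difference of the 6 was 0.22, beside 0.04 over all tested genes. When the values were rescaled to TPM, in which every library has the same sum, the median of all tested genes moved to -0.29, and 1 of these 6 was higher and 0 lower, with a median of -0.11. With no filter, 1 of 9 was higher and 0 lower. SLC30A1 (ENSG00000170385, chromosome 1, 211571568 to 211579161), the zinc exporter of the plasma membrane, was the most abundant, at 43.1% to 46.2% of the summed SLC30A level in YQSHJD libraries and 44.3% to 47.6% in saline libraries. It measured 29.2, 28.2 and 27.2 FPKM in YQSHJD 1 to 3, and 24.7, 22.2 and 21.8 FPKM in saline 1 to 3. The groups did not overlap, and the 1.23-fold rise passed the test (log2 difference 0.29, limma adjusted p = 0.0306). Its recovered reads were alike, at 2222, 1981 and 2225 in YQSHJD 1 to 3 and 2220, 2014 and 2108 in saline 1 to 3, and the library totals that the authors' FPKM imply were 0.885 to 0.923 times the reads in genes with YQSHJD and 1.03 to 1.05 times with saline. The call was lost without YQSHJD 2 (adjusted p = 0.0881), without saline 2 (0.123), without saline 3 (0.0948), with no filter (0.0727), with the replicate number as a block (0.0939) and after GC correction (log2 difference 0.10), and the sign turned under TPM rescaling (-0.06).

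The within-library ratio of MT2A to SLC30A1 was 17.2, 16.7 and 19.3 in YQSHJD 1 to 3, and 33.0, 36.4 and 41.2 in saline 1 to 3. Every YQSHJD ratio lay below every saline ratio, and the log2 difference was -1.05 (exact permutation p = 0.1, the smallest that 3 against 3 can give, adjusted p = 0.15).

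SLC30A9 (ENSG00000014824, chromosome 4, 41990502 to 42090461), a zinc transporter of mitochondria, measured 8.30, 5.80 and 6.63 FPKM in YQSHJD 1 to 3, and 3.44, 4.04 and 4.14 FPKM in saline 1 to 3. It rose 1.79-fold (log2 difference 0.69, standard error 0.13, limma adjusted p = 0.00396) and passed under all 16 alternatives. SLC30A6 (ENSG00000152683, chromosome 2, 32165841 to 32224379), which pairs with SLC30A5 to load zinc into the early secretory pathway, measured 10.3, 7.64 and 8.25 FPKM in YQSHJD 1 to 3, and 5.73, 6.28 and 5.80 FPKM in saline 1 to 3. It rose 1.47-fold (log2 difference 0.48, limma adjusted p = 0.0119), a call lost under TPM rescaling (0.18, adjusted p = 0.235) and with no filter (adjusted p = 0.0529). In both genes YQSHJD 1 was the highest library, and both passed without it.

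The partner SLC30A5 measured 12.9 ± 1.25 FPKM with YQSHJD and 11.8 ± 0.686 FPKM with saline, a log2 difference of 0.12 with a 95% interval of -0.11 to 0.35. SLC30A7, a transporter of the Golgi, had a log2 difference of 0.16 (95% interval -0.09 to 0.40), and SLC30A3, which loads zinc into synaptic vesicles, had one of -0.18 (-0.51 to 0.15) at about 1 FPKM. SLC30A3 overlaps DNAJC5G, which lies on the opposite strand, and whether reads were counted by strand is not known, so its reads may be shared. SLC30A10, which exports manganese, was under the filter, with 26, 10 and 13 reads in YQSHJD 1 to 3 and 47, 27 and 41 in saline 1 to 3. SLC30A2 and SLC30A4, known from zinc secretion into milk, had at most 2 reads, and SLC30A8 of insulin granules was listed at 0.

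Among SLC39A genes, 1 of 9 tested members rose, against 23.3% of all tested genes, and 0 fell, against 18.0%. The median log2 difference of the 9 was 0.02. Under TPM rescaling 1 was higher and 4 were lower, with a median of -0.33. SLC39A6 (ENSG00000141424, chromosome 18, 36108531 to 36129385) measured 29.9, 26.0 and 25.5 FPKM in YQSHJD 1 to 3, and 12.6, 12.5 and 13.1 FPKM in saline 1 to 3. The groups were far apart, with every YQSHJD library above 25 FPKM. It rose 2.13-fold (log2 difference 1.03, standard error 0.09, limma adjusted p = 9.8e-05) and passed under all 16 alternatives, with log2 differences of 0.71 to 1.08. By mean FPKM it ranked 1462 among protein-coding genes with YQSHJD and 2964 with saline. SLC39A10, its closest relative and partner in a heteromer, had a log2 difference of 0.15 (95% interval -0.16 to 0.46), with 2.85, 2.21 and 1.92 FPKM in YQSHJD 1 to 3 and 1.63, 2.10 and 2.26 FPKM in saline 1 to 3.

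**Figure D4:**
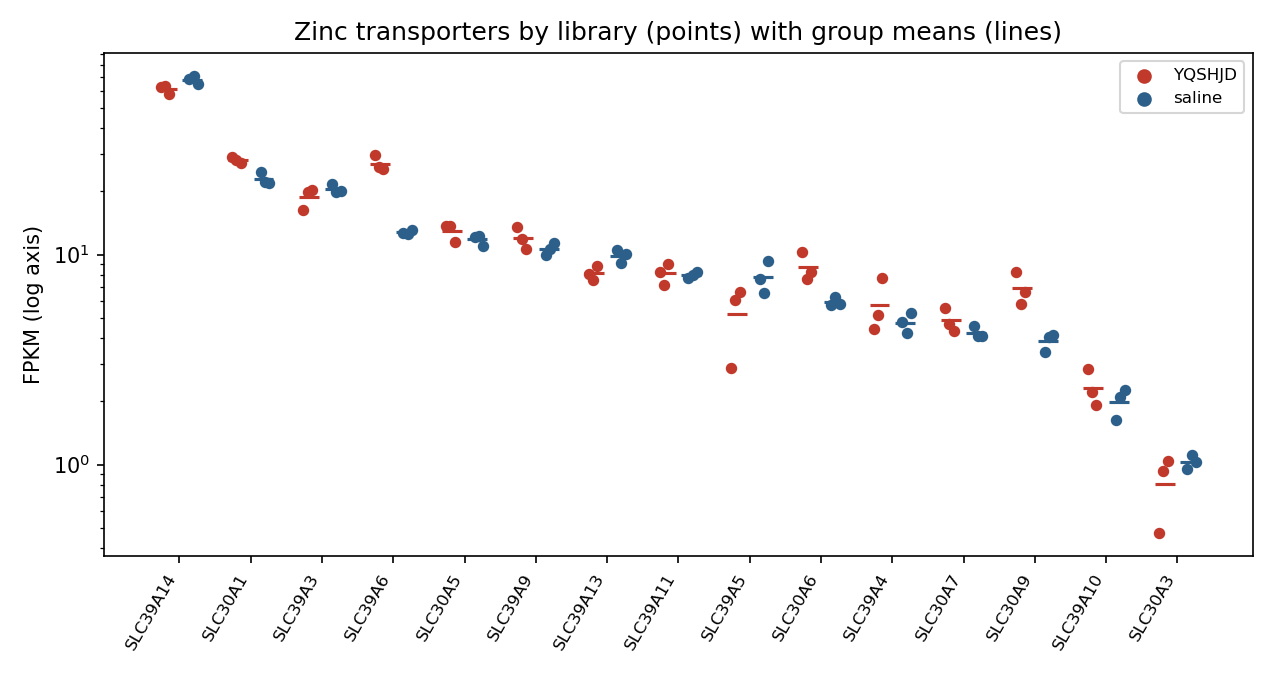
FPKM on a log axis of the 15 tested zinc transporters, ordered by saline mean, with a point per library and a line per group mean, YQSHJD in red left of saline in blue. SLC39A14 is the highest in both groups, SLC39A6 shows the widest gap between groups, and the YQSHJD points lie above all saline points for SLC30A1, SLC39A6, SLC30A6 and SLC30A9.

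SLC39A14 (ENSG00000104635), the hepatic importer of zinc, manganese and iron, was the most abundant transporter. It measured 62.8, 63.6 and 58.3 FPKM in YQSHJD 1 to 3, and 68.6, 71.0 and 64.8 FPKM in saline 1 to 3. The groups did not overlap, but the log2 difference of -0.14, with a 95% interval of -0.33 to 0.05, did not pass (limma adjusted p = 0.199). TPM rescaling gave -0.50 (adjusted p = 0.00281) and GC correction -0.18 (adjusted p = 0.0453), both past the threshold. SLC39A14 made up 38.9% to 42.3% of the summed SLC39A level in YQSHJD libraries and 44.5% to 49.1% in saline libraries, while that sum was 149.7 to 150.1 FPKM with YQSHJD and 144.6 to 146.2 FPKM with saline.

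SLC39A13, a transporter of intracellular vesicles in the early secretory pathway, measured 8.06, 7.58 and 8.84 FPKM in YQSHJD 1 to 3, and 10.5, 9.11 and 10.1 FPKM in saline 1 to 3. Its groups did not overlap, and its log2 difference of -0.25 (95% interval -0.47 to -0.03) did not pass over all genes (limma adjusted p = 0.0695). It passed under TPM rescaling, with median-of-ratios scaling and without YQSHJD 3 (adjusted p = 0.0466), and the sign turned after GC correction, at 0.10. SLC39A5, a zinc importer of hepatocytes and pancreas, measured 2.88, 6.07 and 6.66 FPKM in YQSHJD 1 to 3, and 7.64, 6.58 and 9.27 FPKM in saline 1 to 3. YQSHJD 1 stood well below the rest, and the log2 difference of -0.56 had a wide interval of -1.16 to 0.04 (limma adjusted p = 0.12) and was -0.25 without YQSHJD 1. It passed as lower under TPM rescaling, with the replicate block and with voom on the recovered reads. SLC39A5 overlaps ANKRD52 and SLC39A9 overlaps ERH, both on the opposite strand, with up to 2907 reads for ANKRD52 and 2240 for ERH in a library, so their values are uncertain.

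The remaining tested importers overlapped between the groups. SLC39A3 had a log2 difference of -0.13 (95% interval -0.37 to 0.11), which passed as lower under TPM rescaling (-0.49, adjusted p = 0.022) and turned sign after GC correction (0.11). The difference was, for SLC39A11 of the Golgi, 0.02 (-0.21 to 0.25) and, for SLC39A9, 0.15 (-0.09 to 0.40). SLC39A4, the intestinal importer whose loss causes acrodermatitis enteropathica, had 0.21 (-0.18 to 0.61), with YQSHJD 3 at 7.77 FPKM above the other 5 libraries at 4.21 to 5.24 FPKM. These intervals do not show that the genes were unchanged.

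Among the untested importers, SLC39A8, a close relative of SLC39A14 that carries manganese and zinc, had 12, 11 and 12 reads in YQSHJD 1 to 3, and 39, 28 and 57 reads in saline 1 to 3. Every YQSHJD library lay below every saline library, at about 0.1 FPKM against 0.215 to 0.41 FPKM. SLC39A1, a widely expressed importer, had only 27 to 33 reads in YQSHJD libraries and 20 to 38 reads in saline libraries. It overlaps CREB3L4 on the opposite strand and the protein-coding gene ENSG00000285779 on the same strand. How reads in such overlaps were counted is not known, so the low count of SLC39A1 is uncertain. SLC39A2 and SLC39A12 were listed at 0. SLC39A7, which releases zinc from the endoplasmic reticulum in most cells, was also listed at 0 in every library. Of the 11 protein-coding genes within 100 kb of it, 9 never exceeded 3 reads, with RING1 and VPS52 at 0 throughout, against 33.6% of all protein-coding genes, so the 0 of SLC39A7 belongs to a stretch with almost no counts and is given only as listed.

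Other genes of metal handling, taken from lists, moved in both directions. Of 8 listed MTF1 targets outside the family, 6 were tested, 1 was higher and 3 were lower, with a median log2 difference of -0.27. Beside the list counts of this paragraph, 23.3% of all tested genes were higher and 18.0% lower. GCLC, the catalytic subunit of glutathione synthesis, averaged 18.1 ± 0.659 FPKM with YQSHJD and 5.47 ± 0.295 FPKM with saline (log2 difference 1.56, limma adjusted p = 9.72e-06). NDRG1, a stress-induced gene, averaged 1.97 ± 0.204 FPKM with YQSHJD and 4.10 ± 0.536 FPKM with saline (log2 difference -0.78). The actin-associated protein CSRP1 fell by 0.41 on the log2 scale. The growth factor PGF had a log2 difference of -0.63 (limma adjusted p = 0.0238), which was -0.40 without YQSHJD 1, and its call was lost without saline 1 (adjusted p = 0.0738), saline 2 (0.0689) or saline 3 (0.0567) and with no filter (0.107). GCLC is also a target of NRF2. Of 11 rows for other zinc channels, sensors and chaperones, 6 were tested, 2 were higher and 0 lower; these were the zinc chaperones ZNG1B and ZNG1E, near-identical copies whose reads are uncertain, at 2.76 and 1.52 FPKM with YQSHJD and 1.82 and 0.875 FPKM with saline, and 0 passed in either direction under TPM rescaling, without saline 1 or without saline 2. The count higher was 1 without YQSHJD 2 and 3 without saline 3. ZNG1E reached 1 FPKM in every YQSHJD library but, among saline libraries, only in saline 3, so it passed the filter mainly through the group where it was higher.

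Of 16 copper handling genes, 10 were tested, with 3 higher and 1 lower and a median of 0.18. Over all tested genes, 23.3% were higher and 18.0% lower. SOD1, the copper and zinc superoxide dismutase, averaged 128.7 ± 7.14 FPKM with YQSHJD and 71.2 ± 5.51 FPKM with saline (log2 difference 0.85, limma adjusted p = 0.000235). CCS, the chaperone that loads copper into SOD1, averaged 10.1 ± 3.11 FPKM with YQSHJD and 18.3 ± 1.16 FPKM with saline (log2 difference -0.84, limma adjusted p = 0.0115). Without YQSHJD 1 the CCS difference was -0.59, after GC correction it was -0.48, and with no filter its call was lost (adjusted p = 0.0625). The mitochondrial copper chaperone COX17 was higher by 0.55, a call lost under TPM rescaling (adjusted p = 0.15) and with no filter (0.0519). SCO1, another one, had a log2 difference of 0.30 at the edge of the threshold (limma adjusted p = 0.04996), and 13 of 15 alternatives lost its call, with a difference of 0.002 under TPM rescaling. The list held 1 higher and 3 lower under TPM rescaling, and 1 higher and 0 lower with no filter.

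Genes that respond to other known inducers of metallothioneins were also counted. Beside these counts, 23.3% of all tested genes were higher and 18.0% lower. Of 5 tested glucocorticoid-induced genes, 0 were higher and 2 lower; TSC22D3, a mediator of glucocorticoid action, averaged 2.32 ± 0.189 FPKM with YQSHJD and 9.48 ± 0.856 FPKM with saline (log2 difference -1.66, limma adjusted p = 1.46e-05). KLF9, a transcription factor, had a log2 difference of -0.26 (limma adjusted p = 0.0371), a call lost with no filter (adjusted p = 0.066), with the replicate block (0.134), with voom (0.0508) and without YQSHJD 2 (0.102), YQSHJD 3 (0.0517), saline 1 (0.126), saline 2 (0.12) or saline 3 (0.0842). After GC correction this list held 1 higher and 3 lower, and with no filter 1 higher and 1 lower. The glucocorticoid targets TAT and SGK1, named after their values were seen, were under the filter and higher in every YQSHJD library, with TAT at 0.881 to 1.17 FPKM with YQSHJD and 0.122 to 0.266 FPKM with saline, and SGK1 at 0.948 to 1.19 FPKM with YQSHJD and 0.44 to 0.727 FPKM with saline. Of 10 tested genes listed as interleukin-6 and STAT3 targets, 5 were higher and 1 lower, and under TPM rescaling 2 were higher and 3 lower. The list also holds the receptor IL6R and STAT3 itself, which are parts of the pathway. Without saline 1 the count higher was 2, without YQSHJD 2 or saline 2 it was 3, and with no filter it was 2. IL6R, the interleukin-6 receptor, averaged 7.14 ± 0.311 FPKM with YQSHJD and 3.08 ± 0.219 FPKM with saline (log2 difference 0.9975, limma adjusted p = 0.000109). FGB had a log2 difference of 1.17 and HP, haptoglobin, one of -0.9996. Of 6 tested heat shock factor targets, 4 were higher and 0 lower, and 3 were higher under TPM rescaling, while after GC correction 6 of 6 were higher. The chaperones HSPA8 and HSPH1 had log2 differences of 0.84 and 0.80 as deposited, and 2 tested genes of this list did not pass. HSPA1A, HSPA1B and HSPA6, named after their values were seen, were under the filter, with at most 1, 3 and 17 reads in a library. HSPA1A and HSPA1B start at 31815543 and 31827738 on chromosome 6, where SLC39A7 also lies, at 33200305. Whether reads of these 2 genes were lost was not tested, so their values are given only as listed. The part of these inducers in the metallothionein values was not tested.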

How the data were processed

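The deposited FPKM values were made by the authors from polyadenylated RNA with an Illumina TruSeq kit, per the labels' protocols, with CASAVA 2.19 among the tools, per the submitters' processing notes. The sources used here name no aligner, counter, strand setting, build or annotation. The table held 62709 genes and 1 empty line, and 6 columns of values that match no sample of the series were not used. Multiplied by the deposited gene length, 100% of the values were whole reads, within 0.01, after division by a constant of the library, so reads were recovered.

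Genes that reached 1 FPKM in 3 or more libraries were tested on log2(FPKM + 1) with limma 3.58.1 in R 4.3.3 (trend and robust prior, two-sided, Benjamini-Hochberg adjustment over all 10966 genes, threshold 0.05). This scale understates the change of low genes. Folds are ratios of mean FPKM. The script was tested on data simulated from the saline means. These had no scaling difference between the groups, so that test does not check calls that depend on the scaling. Every member is named, and of each list with tested genes up to 4 of those with the smallest p. Members and lists were chosen with earlier results of these data known. Alternatives were pseudocounts of 0.1 and 0.01, no filter, a filter at FPKM 5, TPM rescaling, median-of-ratios scaling, no trend or robust prior, a replicate block, voom on recovered reads and each library left out. GC correction (loess on GENCODE release 29 transcripts, 98.6% of tested genes) was chosen after seeing the data. Promoter sequences are RefSeq's. Figures were drawn with matplotlib 3.10.9.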

Additional observations from a re-analysis of the deposited data

How the results depend on the processing

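The falls of MT2A and MT1E and the rises of SLC39A6 and SLC30A9 passed under all 16 alternatives. The members called were 5 higher and 2 lower. They were 3 higher with no filter, and 2 higher and 6 lower under TPM rescaling. Leaving out 1 library gave 4 to 5 higher and 2 to 3 lower members. Over all genes, 2559 were higher and 1977 lower. They were 876 higher and 4342 lower under TPM rescaling and 1606 higher with no filter, and leaving out 1 library gave 1593 to 2571 higher and 1105 to 2192 lower, the fewest without saline 1, and 1276 lower without saline 2. Under TPM rescaling these log2 differences turned sign: SLC30A1 -0.061, SLC30A5 -0.23, SLC30A7 -0.16, SLC39A4 -0.10, SLC39A9 -0.19, SLC39A10 -0.12 and SLC39A11 -0.33. After GC correction SLC39A3 stood at 0.11, SLC39A13 at 0.10, SLC30A3 at 0.021, SLC30A5 at -0.058, SLC30A7 at -0.039 and SLC39A10 at -0.043. SLC39A11 stood at -0.0069 with median-of-ratios scaling, and leaving out 1 library gave it -0.050 to 0.097. The cause of these turns was not tested.

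The titles give both groups the numbers 1 to 3. Deviations of same-numbered libraries from their group means correlated at -0.25, -0.11 and -0.04. With 3 libraries per group, these values cannot tell whether libraries of the same number were handled together. With the replicate block, 2018 genes were higher and 1689 lower, and 4 members higher and 3 lower. No library correlated best with its own number. Genes near 1 FPKM rest on few reads, so MT1X (50 to 72 reads) and the members under the filter are imprecise.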
